A study of Mus with 6 samples.

Results

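The genes described here encode granzymes and other parts of the cytotoxic granule. They are 8 genes, Gzma, Gzmb, Gzmc, Prf1, Srgn, Serpinb9, Serpinb6b and Nkg7, picked by symbol from the 10995 protein-coding genes of the deposited table. The rule names symbols and no values, but it was written with earlier results of these data known. The RNA came from spleen CD4+ T cells of WT mice, isolated as naive cells and activated for 3 days with anti-CD3 (5 μg/mL), anti-CD28 (2 μg/mL) and IL-2 (100 U/mL). Activation took place with a neutralizing anti–VEGF-B antibody or with normal goat IgG, both at 1 μg/mL, and each treatment had 3 libraries. The comparison addresses what neutralizing VEGF-B, a growth factor of the VEGF family, does to transcripts of activated T cells. Neither the labels nor the methods say whether the 3 libraries of a treatment came from separate mice or cultures, so that p-values measure only the spread between these libraries, which may be technical.

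Cytotoxic granules are secretory lysosomes of killer lymphocytes. Perforin opens the membrane of the target cell, and granzymes, a family of serine proteases, enter and cleave proteins that lead to death of that cell. Granzymes are held in the granule on the proteoglycan serglycin, and the killer cell keeps serpins in its cytosol that trap granzymes which escape. CD8+ T cells and natural killer (NK) cells are the best known carriers of these granules, and activated CD4+ T cells also transcribe some of the genes, Gzmb among them.

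In these cells Gzmb, Gzma, Serpinb9 and Prf1 fell with anti–VEGF-B, and none of the 8 genes rose. Gzmb went from a mean of 257 to 146 FPKM (fragments per kilobase of transcript, scaled to the fragments of the library), or to 56.7% of the IgG mean. Serpinb9, which encodes an inhibitor of granzyme B, went to 63.0% of the IgG mean, and Gzma to 72.2%. Prf1 was near the lower end of the table in both groups. Srgn, Serpinb6b and Nkg7 had groups that overlapped, and Gzmc missed the threshold.

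Differences were tested with limma on log2(FPKM + 1), in 8816 genes whose mean reached 1 FPKM, with Benjamini-Hochberg adjustment over all of them. Genes with an adjusted p under 0.05 were called. For genes of low FPKM the added 1 makes a fold change look smaller than it is. Of the 8 genes 6 passed the filter, and 3 of these were called lower (Gzma, Gzmb and Serpinb9), beside 23.8% of all genes tested. None of the 6 was called higher, beside 4.87% of all genes, and 1 of the 6, Serpinb6b, was higher at an unadjusted p under 0.05. Gzmc and Prf1 did not pass the filter and were taken from the same test without it, where 4 of the 8 genes were called lower beside 20.6% of all genes. The groups did not overlap, with anti–VEGF-B the lower, for 3 of the 6 genes that passed the filter and for 38.5% of all genes tested. In the opposite direction the share was 10.5% of all genes and 0 of the 6. The median log2 fold change was -0.33 over the 6 genes and -0.15 over all genes tested, of which 71.2% were below 0. With the libraries rescaled to a common median, the all-gene median was 0.05, Gzmb, Serpinb9 and Prf1 were still called lower, Gzma was not, and Serpinb6b was called higher. Over all genes this rescaling gave 807 lower and 1365 higher calls, against 2099 and 429 without it.

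The levels spanned a wide range. If the values are FPKM, as taken here, their scaling per transcript length allows genes to be set beside each other. In the IgG libraries Gzmb was the highest, followed by Srgn, Serpinb6b, Gzma, Serpinb9, Nkg7, Gzmc and Prf1. Gzmb lay above 98.1% of the genes listed by its mean over the 6 libraries, and Serpinb6b above 96.3%. Gzma lay above 65.1%, and Prf1 above 6.23%. Gzmb and Srgn overlapped in the IgG libraries, while all other neighbours in this order were apart from each other. With anti–VEGF-B the levels of Srgn, at 170 FPKM or more, were all above those of Gzmb, at 168 FPKM or less, and Nkg7 and Gzmc overlapped.

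**Figure D1:**
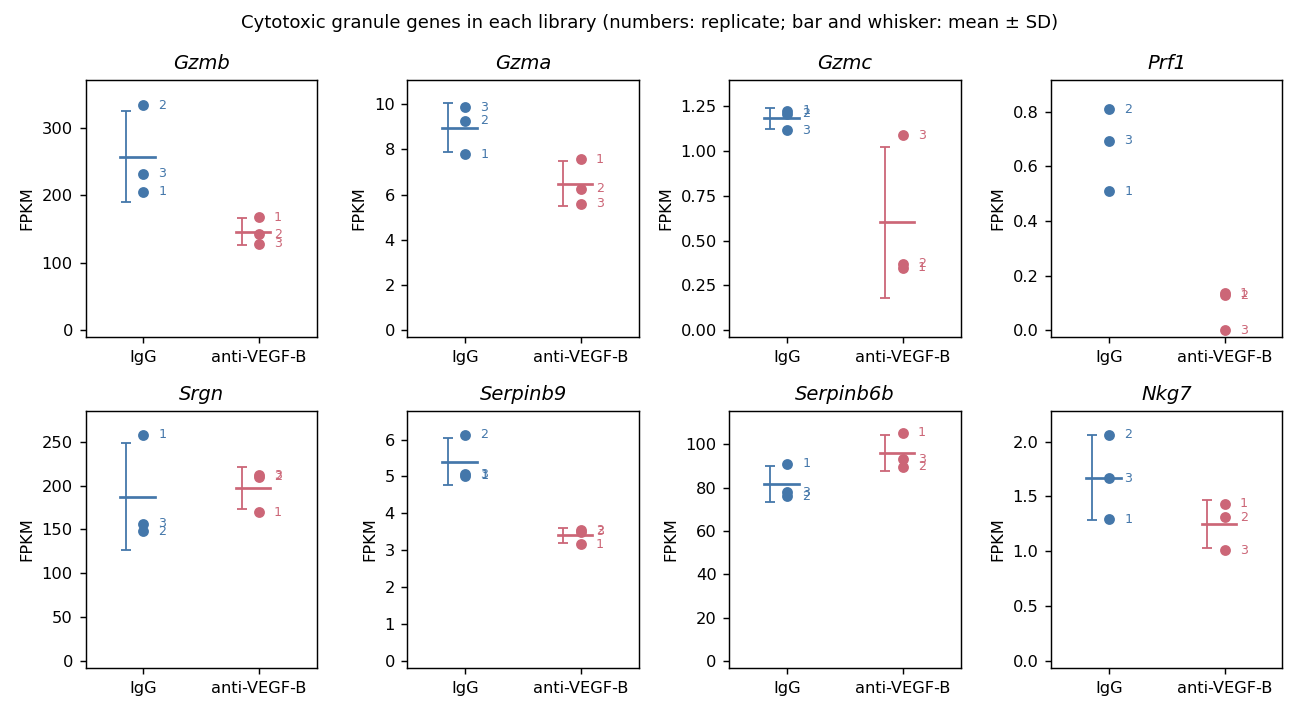
FPKM of each of the 8 genes (vertical axis, from 0, a scale of its own per gene) in the 3 IgG libraries and the 3 anti–VEGF-B libraries, with replicate numbers beside the points and the group mean ± SD as a bar and whisker; none is drawn for Prf1, which was listed at 0 in 1 library. For Gzmb the anti–VEGF-B libraries sit between 128 and 168 FPKM and the IgG libraries between 206 and 334 FPKM, while for Srgn the groups are mixed.

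Gzmb encodes granzyme B, which cleaves after aspartate and activates caspases. It read 168, 142 and 128 FPKM in anti–VEGF-B replicates 1, 2 and 3, and 206, 334 and 232 FPKM in IgG replicates 1, 2 and 3. All anti–VEGF-B libraries were below all IgG libraries, and IgG replicate 2 stood well above the other IgG libraries. The means were 146 ± 20.1 and 257 ± 67.6 FPKM (SD, n = 3 libraries each), and the log2 fold change was -0.79 (SE 0.168, adjusted p = 0.0127, limma). After subtracting the all-gene median it was -0.64. The difference did not rest on IgG replicate 2, since without that library the log2 fold change was -0.59 and the call was kept. Under the alternatives tried, the limma adjusted p of Gzmb ran from 0.00853 to 0.109, and the call was lost only when the variances were not moderated across genes.

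Gzma encodes granzyme A, a protease that cleaves after basic residues. Its levels were 7.55, 6.27 and 5.60 FPKM with anti–VEGF-B and 7.78, 9.26 and 9.86 FPKM with IgG. The groups did not overlap, but anti–VEGF-B replicate 1 and IgG replicate 1 were close to each other. The means of 6.47 ± 0.992 and 8.97 ± 1.07 FPKM (SD, n = 3 each) gave a log2 fold change of -0.42 (SE 0.124, adjusted p = 0.0351, limma), which was -0.27 relative to all genes. The fall of Gzma was lost in 10 of 16 alternatives, among them every rescaling between libraries (limma adjusted p 0.0526 to 0.183), though it was below 0 in all 16.

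Gzmc encodes granzyme C, a close relative of granzyme B. It read 0.348, 0.371 and 1.09 FPKM with anti–VEGF-B, and 1.22, 1.21 and 1.12 FPKM with IgG. Anti–VEGF-B replicate 3 was almost at the level of the IgG libraries, while the other 2 were far below, and the groups did not overlap. In the test without a filter the log2 fold change was -0.48 (SE 0.161, limma adjusted p = 0.0593). Leaving out anti–VEGF-B replicate 3 gave -0.68 and a limma adjusted p of 0.0320, so that this library decided the call.

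Of the other granzymes only Gzmf and Gzmm were listed, and Gzmd, Gzme, Gzmg, Gzmk and Gzmn were not analysed here. Gzmm, which encodes granzyme M, read 1.77, 2.60 and 2.30 FPKM with anti–VEGF-B and 3.89, 3.15 and 2.45 FPKM with IgG, with overlapping groups. Its log2 fold change was -0.36 (SE 0.151, limma adjusted p = 0.0985). Gzmf was at most 0.656 FPKM and was listed at 0 in a library of each group. Of the summed FPKM of the 5 listed granzymes, Gzmb made up 93.4% to 96.0% in every library and Gzma 2.66% to 4.26%. The ratio of Gzmb to Gzma was 22.2, 22.7 and 22.8 with anti–VEGF-B and 26.4, 36.0 and 23.6 with IgG. This ratio did not overlap between the groups, with p = 0.1 in a two-sided exact permutation test, which is the smallest p that 3 libraries against 3 can give.

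The granzymes lie in gene clusters. In GRCm38, Gzmb was annotated by the authors' table at chromosome 14, 56258838 to 56262260, and Gzmc at chromosome 14, 56231441 to 56234656, both on the minus strand. RefSeq places 7 granzyme genes together on this part of chromosome 14, of which the table listed 3. Gzma was at chromosome 13, 113093825 to 113100981, also on the minus strand. Because the chromosome 14 granzymes are alike in sequence, how reads were shared among them is uncertain, and the low values of Gzmc and Gzmf beside the high Gzmb should be read with this limit. The listed gene next to Gzmb on its other side, Cenpj, a centriole gene, was called lower (log2 fold change -0.42, limma adjusted p = 0.0368). That call was lost in 10 of 15 alternatives. The listed genes on either side of Gzma were Ccno, 103047 bases away, and Snx18, 491197 bases away. Ccno was not called (log2 fold change -0.15, limma adjusted p = 0.374), and Snx18 rose (0.71, limma adjusted p = 0.00491).

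Prf1 encodes perforin, the protein that forms the pore. It was listed at 0.135, 0.128 and 0 FPKM in the anti–VEGF-B libraries and at 0.509, 0.809 and 0.694 FPKM in the IgG libraries. All levels were below 1 FPKM, the groups were well apart, and the value listed at 0 was in anti–VEGF-B replicate 3. In the test without a filter the log2 fold change was -0.62 (SE 0.0926, limma adjusted p = 0.00834). On this scale the change of so low a gene is compressed, and with a pseudocount of 0.1 in place of 1 it was -2.12. The number of reads behind FPKM this low is unknown. Prf1 was at chromosome 10, 61297833 to 61304680, on the plus strand.

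Srgn encodes serglycin, whose sulphated chains bind granzymes in the granule. It read 170, 210 and 212 FPKM with anti–VEGF-B and 258, 148 and 157 FPKM with IgG. IgG replicate 1 was the highest of the 6 libraries and the other IgG libraries were the lowest, so that the anti–VEGF-B libraries lay inside the IgG range. The log2 fold change was 0.11 (95% interval -0.32 to 0.54, limma adjusted p = 0.676). This value rested on single IgG libraries: it was 0.36 without IgG replicate 1, with a limma adjusted p of 0.0430, and -0.035 without IgG replicate 2. Srgn was at chromosome 10, 62493833 to 62527451, on the minus strand.

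**Figure D2:**
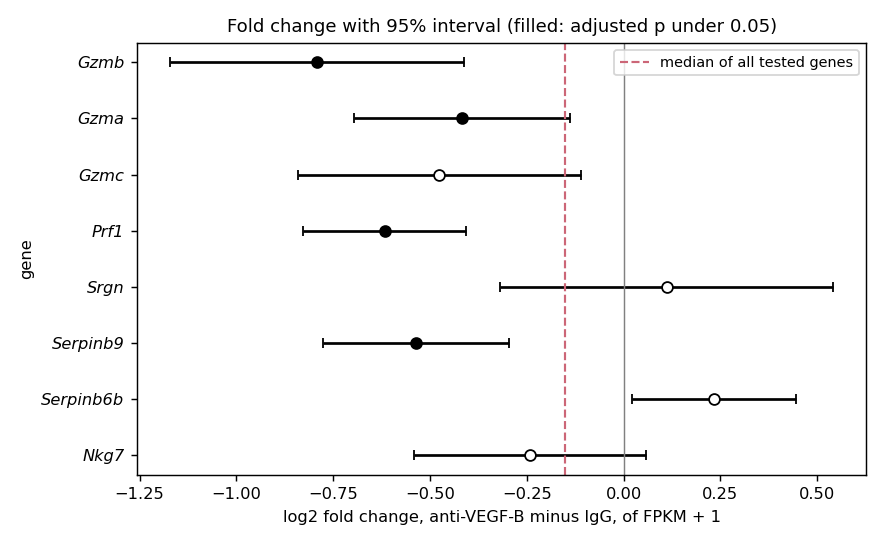
Log2 fold change of FPKM + 1, anti–VEGF-B minus IgG (horizontal axis), of each of the 8 genes with its 95% interval from limma; filled points had an adjusted p under 0.05, and the dashed line is the median of all genes tested, -0.15. Gzmb, Prf1 and Serpinb9 have intervals wholly below the dashed line, the interval of Gzma reaches it, and Serpinb6b and Srgn are on the positive side.

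Serpinb9 and Serpinb6b are neighbours, and Serpinb9 fell while Serpinb6b was not called. Serpinb9, at chromosome 13, 33003250 to 33017957, and Serpinb6b, at chromosome 13, 32965209 to 32979067, are both on the plus strand with 24182 bases between them. Serpinb9 read 3.17, 3.54 and 3.50 FPKM with anti–VEGF-B and 5.02, 6.13 and 5.05 FPKM with IgG. The libraries of each group were close to each other and the groups were apart. The means were 3.40 ± 0.204 and 5.40 ± 0.635 FPKM (SD, n = 3 each), and the log2 fold change was -0.54 (SE 0.106, adjusted p = 0.0104, limma), or -0.38 relative to all genes. The call was lost only without moderation of the variances (limma adjusted p = 0.0699).

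Serpinb6b, a serpin of the same clade, read 105, 89.7 and 93.1 FPKM with anti–VEGF-B and 91.0, 76.2 and 77.9 FPKM with IgG. The groups overlapped, because IgG replicate 1 was above anti–VEGF-B replicate 2. The means of 96.1 ± 8.28 and 81.7 ± 8.12 FPKM (SD, n = 3 each) gave a log2 fold change of 0.23, or 0.38 relative to all genes. Its 95% interval was 0.02 to 0.44 (limma adjusted p = 0.0891). It was called higher in 3 of 16 alternatives, among them with libraries centred on their median (0.43, limma adjusted p = 0.0309) and without IgG replicate 1 (0.31, limma adjusted p = 0.0381). The ratio of Serpinb6b to Serpinb9 was 33.3, 25.4 and 26.6 with anti–VEGF-B and 18.1, 12.4 and 15.4 with IgG. Every anti–VEGF-B ratio was above every IgG ratio, a difference of 0.90 on the log2 scale (p = 0.1, two-sided exact permutation test). This p is the smallest that the design allows, and the pair was chosen with its values known, so that the ratio is a description. RefSeq places 16 serpin B genes in this stretch of chromosome 13, of which 4 were listed, so that how reads of near-identical copies were shared is uncertain here too.

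The ratio of Gzmb to its inhibitor Serpinb9 was 52.9, 40.3 and 36.5 with anti–VEGF-B and 41.0, 54.4 and 46.0 with IgG. These ratios overlapped (p = 0.5, two-sided exact permutation test). The ratio of Gzmb to Srgn was 0.987, 0.678 and 0.604 with anti–VEGF-B and 0.798, 2.26 and 1.48 with IgG, which also overlapped (p = 0.2, two-sided exact permutation test).

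Nkg7 encodes a membrane protein of the granule. It read 1.43, 1.31 and 1.01 FPKM with anti–VEGF-B and 1.29, 2.06 and 1.66 FPKM with IgG. IgG replicate 1 lay among the anti–VEGF-B libraries, so that the groups overlapped. The log2 fold change was -0.24 (95% interval -0.54 to 0.06, limma adjusted p = 0.189). Nkg7 was at chromosome 7, 43437073 to 43438249, on the plus strand.

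**Figure D3:**
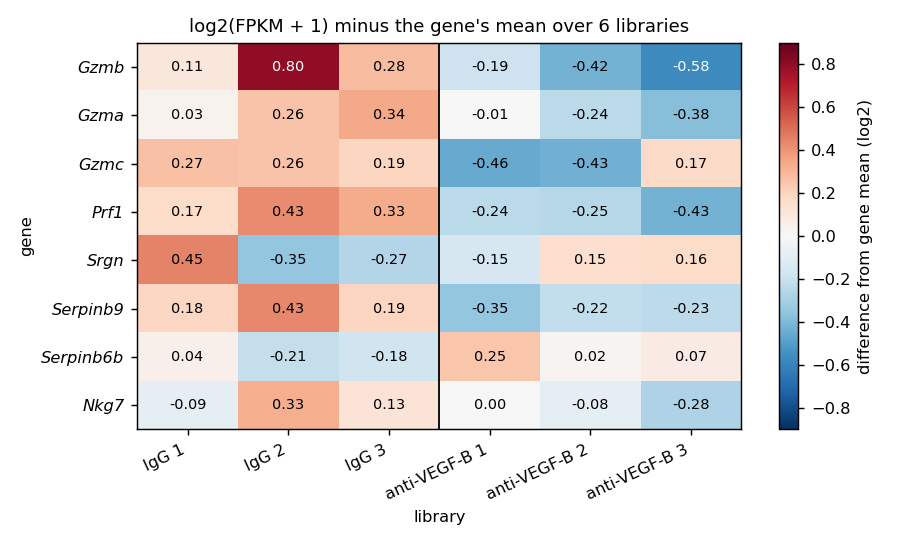
Difference of log2(FPKM + 1) in each library (columns) from the gene's own mean over the 6 libraries, for the 8 genes (vertical axis), with red above and blue below the mean. Gzmb ranges from -0.58 in anti–VEGF-B replicate 3 to 0.80 in IgG replicate 2, and Srgn is highest in IgG replicate 1, at 0.45.

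The libraries at the ends of the range recurred. Anti–VEGF-B replicate 3 had the lowest value of Gzma, Gzmb, Prf1 and Nkg7. IgG replicate 2 had the highest value of Gzmb, Prf1, Serpinb9 and Nkg7 and the lowest of Srgn and Serpinb6b. By the root mean square difference of mean-centred log2(FPKM + 1) over the 6 libraries, the genes with the profile most like that of Gzmb were Pbxip1 (0.0466) and Lrrc8c (0.0521). Cpne3 (0.0315) and Zfp623 (0.0422) were nearest to Gzma, and Rasa3 (0.0359) and Trmt1l (0.0370) to Serpinb9. Odaph (0.0279) and Ybx1 (0.0453) were nearest to Serpinb6b, and Zfp687 (0.0318) and Lipo3 (0.0341) to Nkg7. The nearest genes to Srgn, Shb (0.0974) and Cd74 (0.116), were farther away than those of the other genes.

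The label of the cells was set against marker genes. All 9 T cell markers were listed, and their summed level was 420 to 451 FPKM with anti–VEGF-B and 444 to 508 FPKM with IgG. Of the 9, 3 fell, beside 23.8% of all genes tested, and the other 6 were not called. Thy1 fell to 57.7% of its IgG mean (log2 fold change -0.75, limma adjusted p = 0.00768), Cd3e to 68.3% (-0.51, 0.0197) and Cd5 to 76.2% (-0.38, 0.0343). The call of Cd3e was lost in 5 of 16 alternatives and that of Cd5 in 7 of 16, against 1 of 16 for Thy1. Cd4 was between 64.0 and 74.6 FPKM in all libraries. Cd8a was at most 0.182 FPKM, and Cd8b1 was 2.27 to 4.51 FPKM with overlapping groups. Of 7 NK cell markers only Eomes was listed, at 0.203 FPKM or less, and 1 of 5 B cell markers was listed. Of the mast cell or basophil markers 0 of 6 were listed, and of the erythroid markers 0 of 3. The summed level of the 4 listed myeloid markers of 8 was 11.4 to 12.9 FPKM with anti–VEGF-B and 12.8 to 28.8 FPKM with IgG, highest in IgG replicate 3, where Lyz2 was 16.4 FPKM. The part of the T cell and myeloid markers in the granule gene results was not tested. In bulk RNA, fewer cells that express a gene and less RNA of that gene per cell cannot be told apart.

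Gzmb was also set against each of the 9 T cell markers within a library. The groups did not overlap, with anti–VEGF-B the lower, for 8 of the 9 ratios and overlapped for 1, the ratio to Thy1. All 9 ratios share the Gzmb values, whose groups were already apart, so that the ratios are not separate results. The ratio of Gzmb to Cd3d, a chain of the T cell receptor complex, was 1.41, 1.41 and 1.15 with anti–VEGF-B and 2.02, 3.16 and 2.32 with IgG. These ratios did not overlap, with a log2 difference of -0.90 (p = 0.1, two-sided exact permutation test). The other 7 ratios that did not overlap had log2 differences of -0.96 (Lat) to -0.24 (Cd3e), each with p = 0.1 in the two-sided exact permutation test. The ratio of Gzmb to Thy1 was 9.83, 8.12 and 8.81 with anti–VEGF-B and 8.38, 9.63 and 8.97 with IgG, and its log2 difference was -0.014 (p = 0.9, two-sided exact permutation test). How Gzmb compared with T cell transcripts thus depended on the marker.

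The other genes of the granule pathway were counted in 8 lists, chosen by function, of 120 genes in all. Of these 93 were tested in the filtered data, 29 were called lower and 3 higher, and their median log2 fold change was -0.21, beside 23.8% lower, 4.87% higher and -0.15 for all genes tested. The split depended on the scaling between libraries, as it did over all genes tested. It was 11 lower and 13 higher with median centring, 17 and 8 with quantile normalization and 18 and 5 with cyclic loess. Over all 8816 genes tested these settings gave, in the same order, 807 lower and 1365 higher calls, 913 and 880, and 938 and 852. Among granule proteases and inhibitors 3 of 9 tested genes fell. These were Serpina3f (log2 fold change -0.62, limma adjusted p = 0.00756), Serpina3g (-0.50, 0.0200), both serpins, and Ctsd (-0.43, 0.0104), the lysosomal protease cathepsin D. The call of Serpina3g was lost in 7 of 15 alternatives and that of Ctsd in 2 of 16. Among genes of granule loading and membrane 1 of 15 fell, Calr, which encodes the chaperone calreticulin (-0.43, limma adjusted p = 0.00961). The call of Calr was lost in 2 of 16 alternatives.

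Of the genes of granule transport and release, 7 of 20 fell and 0 rose, beside 23.8% lower and 4.87% higher among all genes tested. The fall was greatest for Rab27a, the small GTPase that docks granules at the membrane, which read 2.65, 2.51 and 2.96 FPKM with anti–VEGF-B and 4.35, 5.71 and 4.90 FPKM with IgG, without overlap. Its log2 fold change was -0.69 (SE 0.114, limma adjusted p = 0.00707). Of the 7 tested genes of the list that encode SNARE membrane fusion proteins, 3 were called lower, Vamp7 (log2 fold change -0.52, limma adjusted p = 0.0113), Snap23 (-0.45, 0.0280) and Stx4a (-0.36, 0.0364). The other 4, Stx11 (0.19), Vamp2 (0.12), Vamp8 (-0.13) and Stx7 (-0.15), were not called, and these SNARE genes were grouped after their values were seen. Dock2, an activator of Rac, also fell (-0.43, limma adjusted p = 0.0315). So did Sytl1 (-0.43, limma adjusted p = 0.0368) and Lyst, the gene of a regulator of lysosome size (-0.37, limma adjusted p = 0.0390). Both were named after their values were seen, and the call of Sytl1 under the alternatives is not given here. These calls were not equally stable: that of Snap23 was lost in 8 of 16 alternatives, those of Stx4a and Dock2 in 10 of 16 and that of Lyst in 11 of 15, against 1 of 15 for Rab27a and for Vamp7.

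Of the death ligands and receptors 3 of 5 tested genes fell, beside 23.8% of all genes tested. Tnf read 16.8, 16.2 and 14.8 FPKM with anti–VEGF-B and 26.4, 32.7 and 26.3 FPKM with IgG, without overlap, and its log2 fold change was -0.79 (SE 0.101, limma adjusted p = 0.00471). Lta, which encodes lymphotoxin alpha, fell by 0.49 on the log2 scale (limma adjusted p = 0.0133), and Casp8, the caspase that death receptors activate, fell by 0.55 (limma adjusted p = 0.0214). The calls of Lta and Casp8 were each lost in 3 of 16 alternatives, and that of Tnf in 1 of 16. Of the genes for granzyme substrates 4 of 13 were called lower, beside 23.8% of all genes tested. They were Dffa (log2 fold change -0.72, limma adjusted p = 0.0152) and Dffb (-0.38, 0.0289), the inhibitor and the nuclease of the DNA fragmentation factor, Set (-0.27, 0.0474), a histone chaperone cleaved by granzyme A, and Lmnb1 (-0.26, 0.0478), a nuclear lamin. The call of Set was lost in 13 of 16 alternatives, that of Lmnb1 in 12 of 16 and that of Dffb in 10 of 15, while that of Dffa was lost in 2 of 15. Of the cytotoxic receptors both tested genes were called lower, Slamf7 (log2 fold change -0.69, limma adjusted p = 0.0110) and Cd226 (-0.37, 0.0387), and the other 9 were below the filter or not analysed here. The call of Cd226 was lost in 10 of 15 alternatives, among them every rescaling (limma adjusted p 0.0652 to 0.432), and that of Slamf7 in 1 of 16.

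**Figure D4:**
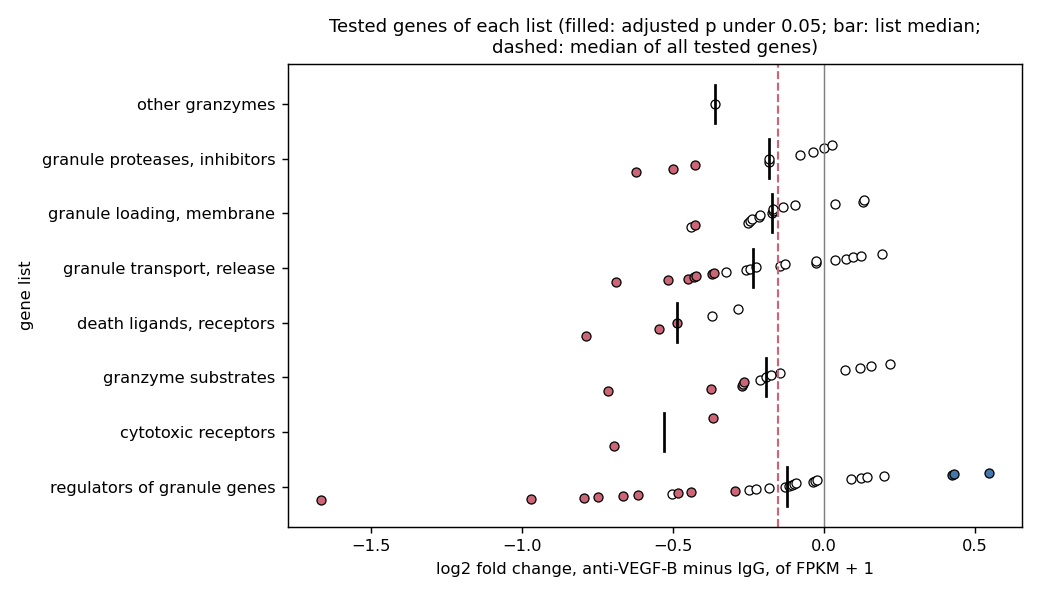
Log2 fold change of FPKM + 1, anti–VEGF-B minus IgG (horizontal axis), of each tested gene in 8 granule pathway lists (vertical axis); filled points had a limma adjusted p under 0.05, bars are list medians and the dashed line is the median of all genes tested, -0.15. Most filled points lie to the left of 0, and the 3 on the right are Bhlhe40, Nfil3 and Ikzf2 among the regulators.

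The regulators of granule genes were split. Of 28 tested genes 9 fell and 3 rose, beside 23.8% lower and 4.87% higher among all genes tested. The median log2 fold change was -0.12 over the 28 genes and -0.15 over all genes tested. Irf4, a transcription factor induced by T cell receptor signals, read 32.0, 31.5 and 22.6 FPKM with anti–VEGF-B and 67.5, 134 and 86.6 FPKM with IgG. These groups were far apart, and the log2 fold change was -1.67 (SE 0.224, limma adjusted p = 0.00488). Il2ra, the alpha chain of the IL-2 receptor, read 65.7, 57.5 and 51.8 FPKM with anti–VEGF-B and 94.9, 150 and 106 FPKM with IgG, also without overlap (log2 fold change -0.97, limma adjusted p = 0.00664). Il2rg, the common gamma chain, fell (-0.67, limma adjusted p = 0.00496), while Il2rb, the beta chain, had a log2 fold change of 0.09 (limma adjusted p = 0.365). Gfi1, a transcriptional repressor (log2 fold change -0.79, limma adjusted p = 0.00657), and Zbtb7b, the factor that sets the CD4+ lineage (-0.75, 0.0125), also fell. The rest of the lower calls were Tcf7 (-0.44, limma adjusted p = 0.0106), Il12rb1 (-0.62, 0.0222), Cbfb (-0.30, 0.0275) and Batf (-0.48, 0.0489). These genes were named after their values were seen, and their calls under the alternatives are not given here.

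Tbx21, Runx3, Prdm1, Stat5a, Stat5b and Eomes, known as inducers of cytotoxic genes, were not called in the fit as reported. Tbx21, the gene of T-bet, read 14.0, 13.4 and 15.0 FPKM with anti–VEGF-B and 12.3, 17.6 and 13.7 FPKM with IgG, and the groups overlapped (log2 fold change -0.02, limma adjusted p = 0.892). Runx3 was 127 to 151 FPKM with anti–VEGF-B and 121 to 129 FPKM with IgG (log2 fold change 0.14, limma adjusted p = 0.210). Prdm1, the gene of Blimp-1, had a log2 fold change of -0.10 (limma adjusted p = 0.549). Stat5b was at -0.04 (limma adjusted p = 0.749), and Stat5a at -0.25 (limma adjusted p = 0.0548) with groups that did not overlap. Eomes was at most 0.203 FPKM. With median centring Runx3 (0.34, limma adjusted p = 0.0250) and Il2rb (0.29, limma adjusted p = 0.0454) were called higher. With the replicate number as a block Stat5a was called lower (limma adjusted p = 0.0401). The signs of Tbx21, Prdm1, Stat5b, Eomes and Il2rb turned under some rescalings.

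Among the regulators of granule genes, those that rose encode transcription factors. Bhlhe40, a basic helix-loop-helix factor, read 562, 565 and 579 FPKM with anti–VEGF-B and 404, 347 and 419 FPKM with IgG, without overlap (log2 fold change 0.55, SE 0.0862, limma adjusted p = 0.00634). Nfil3, a basic leucine zipper factor, rose by 0.43 (limma adjusted p = 0.00845), and Ikzf2, the gene of Helios, by 0.42 (limma adjusted p = 0.0231). The call of Ikzf2 was lost in 4 of 15 alternatives, against 1 of 16 for Bhlhe40 and for Nfil3. Nfil3 and Ikzf2 were named so that the count of 3 is complete.

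**Figure D5:**
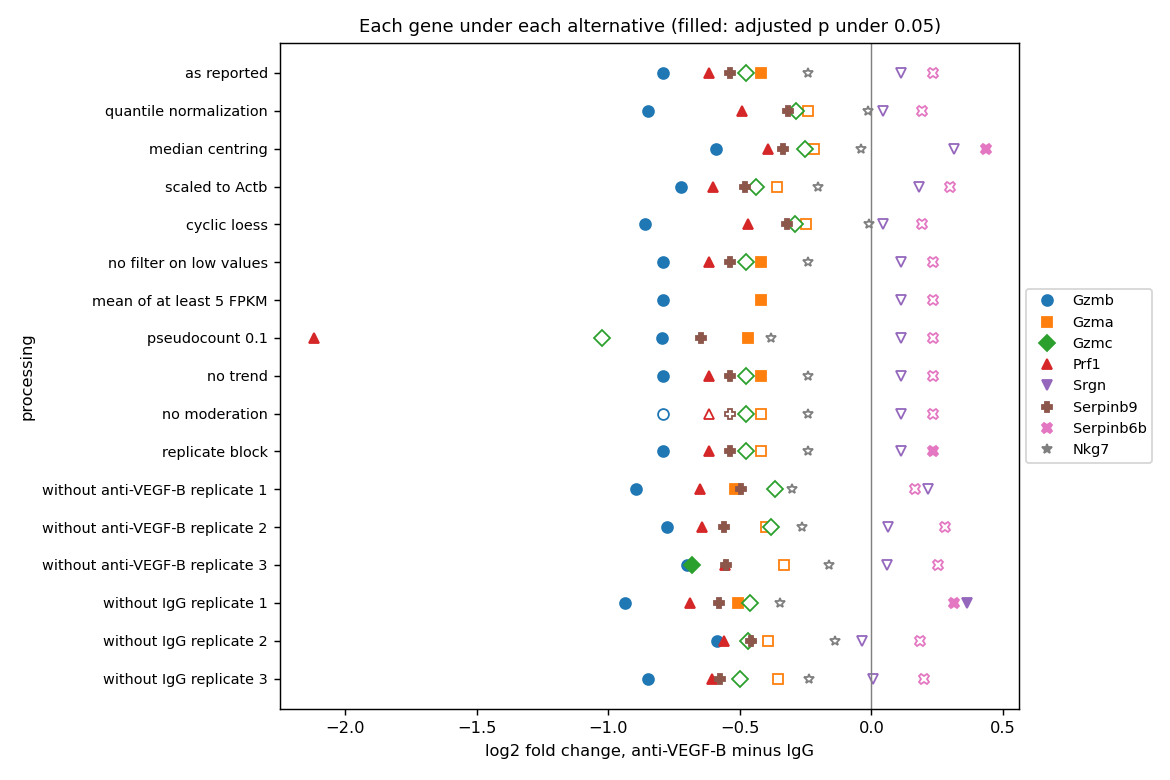
Log2 fold change, anti–VEGF-B minus IgG (horizontal axis), of each of the 8 genes as reported and under each of 16 alternative ways of processing (vertical axis); filled symbols had an adjusted p under 0.05. Gzmb is between -0.94 and -0.59 throughout, Prf1 moves to -2.12 with a pseudocount of 0.1, and Srgn crosses 0 without IgG replicate 2.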

How the data were processed

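RNA of 6 libraries was made with a stranded kit, and the authors aligned the reads to GRCm38 with hisat2 and quantified them with StringTie and Ballgown. The authors deposited 1 FPKM value per gene and library, although the table is named as raw data. No scaling between libraries is stated, and the depth is unknown. The FPKM summed to 260058 to 276622 per library. The tests used R 4.3.3 and limma 3.58.1 (empirical Bayes with trend) on log2(FPKM + 1), with no covariate and with a filter at a mean of 1 FPKM. Tables and ratios used Python 3.11.15. The method was tested on simulated data. Alternatives changed the scaling, filter, pseudocount, trend, moderation, replicate block and libraries.

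The 8 genes, the pathway lists and the markers were chosen with earlier results of these data known. Named were the 8 genes, up to 5 called genes of lowest adjusted p in each pathway list, all granzymes, a set of inducers and the 2 genes of nearest profile. Neighbouring genes, Lyst, Sytl1, Nfil3, Ikzf2, Cbfb, Il12rb1, Batf, Tcf7 and T cell markers that fell were named after their values were seen. Gene clusters came from RefSeq (GRCm38.p6), in which all 8 symbols were found.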

Additional observations from a re-analysis of the deposited data

How the results depend on the processing

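The number of reads behind FPKM is unknown, so that low values such as those of Prf1, Gzmc and Gzmf have no counting error, and 3 libraries a group limit the precision. Of the 8 granule genes, 7 kept their sign in every alternative in which they had a value, and Srgn went to -0.035 without IgG replicate 2. Without moderation of the variances 0 of the 8 genes were called lower, with 6 lower and 6 higher calls over all genes and 0 of either kind in the pathway lists. Serpinb6b made 1 higher call with median centring. At a mean of at least 5 FPKM 2 granule genes were called lower, since Serpinb9, Prf1, Gzmc and Nkg7 were not tested. The median of the granule genes that passed this filter, Gzma, Gzmb, Srgn and Serpinb6b, was -0.15. That filter left 989 lower calls over all genes and 19 in the pathway lists.

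The scaling between libraries set how many genes were called in each direction, and the cause was not tested. Lower and higher calls over all genes were 913 and 880 with quantile normalization, 807 and 1365 with median centring and 938 and 852 with cyclic loess, and scaling to Actb gave 1309 lower calls. In the pathway lists these settings gave 17 and 8, 11 and 13, 18 and 5, and 19 lower calls. The median of the granule genes was -0.13 with quantile normalization, median centring and cyclic loess.

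Leaving out 1 library at a time gave 695 to 2071 lower and 164 to 396 higher calls over all genes, both lowest without anti–VEGF-B replicate 3, with 1101 and 258 without IgG replicate 2 and 1367 lower calls without anti–VEGF-B replicate 1. In the granule genes it gave 3 to 4 lower and 0 to 2 higher calls, the 2 being Srgn and Serpinb6b without IgG replicate 1, and in the pathway lists 15 to 24 lower and 2 to 4 higher calls.

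The deviations of libraries that share a replicate number correlated at -0.0296, 0.11 and 0.0891, and 1 of 3 anti–VEGF-B libraries correlated best with its own number, so that the numbers were not taken to pair the libraries. With the replicate number as a block, 2109 genes were called lower and 469 higher, 3 granule genes were called lower and 1 higher, and 33 pathway genes were called lower and 4 higher. Of the granule genes, Gzma was no longer called (limma adjusted p = 0.0610) and Serpinb6b was called higher (limma adjusted p = 0.0284). Of the other named genes followed under the alternatives, Lyst (limma adjusted p = 0.0502) and Cpne3 (limma adjusted p = 0.0635) lost their calls. Stat5a was called lower (limma adjusted p = 0.0401).

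Signs turned for the following genes, none of which was called as reported. With quantile normalization Tbx21 was at 0.10, Eomes at 0.0041, Prdm1 at 0.072 and Cd74 at 0.021. With median centring Tbx21 was at 0.18, Eomes at 0.14, Prdm1 at 0.10, Stat5b at 0.16 and Cd74 at 0.17. Scaling to Actb put Tbx21 at 0.039, Stat5b at 0.031 and Cd74 at 0.039, and cyclic loess put Tbx21 at 0.087, Eomes at 0.043, Prdm1 at 0.061 and Il2rb at -0.0044. With 1 library left out, the log2 fold change ran from -0.13 to 0.11 for Tbx21, from -0.085 to 0.023 for Stat5b, from -0.15 to 0.17 for Cd74, from -0.069 to 0.22 for Shb and from -0.035 to 0.36 for Srgn.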
